A study of Mus musculus with 9 samples.

Results

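Receptors of the TNF superfamily that act as costimulators or death domain receptors on T cells were described in donor T cells after mouse hematopoietic stem cell transplantation. The members were the 9 genes Tnfrsf9, Tnfrsf4, Tnfrsf18, Tnfrsf8, Cd27, Tnfrsf1b, Tnfrsf1a, Tnfrsf25 and Tnfrsf14, found by symbol among 29229 genes of the deposited count table. All 9 passed the filter on low counts that left 19609 genes. The members were named by function and not by a threshold on these values, but with earlier results of these data known.

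RNA was sequenced from live CD3+ CD45.2+ cells sorted from spleen, in 3 allogeneic, 3 syngeneic and 3 naive libraries. Allogeneic libraries held C57BL/6 donor T cells (CD45.2) taken 7 days after transfer into CByJ.SJL(B6)-Ptprca/J recipients (H-2d, CD45.1), which had 8 Gy of irradiation and 1000000 donor T cells. Syngeneic libraries held the same kind of donor cells 7 days after transfer into B6.SJL-Ptprca Pepcb/BoyJ recipients (H-2b, CD45.1), which had 9.5 Gy and 8500000 donor T cells. Both kinds of recipient also had 5000000 T-cell-depleted marrow cells of C57BL/6 mice, whose progeny also carry CD45.2, and acidified drinking water. Naive libraries came from healthy C57BL/6 mice without a transplant. Donors and recipients were female and 8 to 12 weeks old, the protocol gives the C57BL/6 mice of the naive libraries no age apart from that of the donors, and each transplant library pooled 2 to 4 recipients. No source used here says if the naive libraries were pools. Antigen, radiation dose and T-cell number differ together between the transplant groups, and their parts in a difference cannot be told apart.

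Receptors of this family are trimers on the cell surface that bind trimeric ligands of the TNF superfamily. Most recruit TRAF adaptors and thereby activate NF-kappaB, which prolongs the survival and division of a T cell that has already met antigen. A few carry a death domain in the cell and can instead start apoptosis. Some members, such as CD27 and HVEM, are present on resting T cells, while others, such as 4-1BB and OX40, appear mainly after activation or on regulatory T cells.

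Counts per library were between 103953932 and 176678189. Levels are CPM, counts scaled to the column total, and log2 fold changes are from edgeR's quasi-likelihood test on counts scaled by TMM, a scaling that assumes that most genes do not change. The threshold for a call was 0.05 on p-values adjusted by Benjamini and Hochberg's method over all genes tested. All 11 T-cell identity genes had counts in all libraries, with a summed level of 4205 to 4447 CPM in allogeneic, 2983 to 3546 CPM in syngeneic and 4360 to 4739 CPM in naive libraries. Other cells were also represented after transplantation. Erythroid marker genes summed to 19.9 to 64.7 CPM in allogeneic, 2179 to 5569 CPM in syngeneic and 2.76 to 3.20 CPM in naive libraries. Neutrophil marker genes summed to 630 to 1128 CPM, 416 to 1390 CPM and 1.66 to 5.20 CPM in the same 3 groups. Dendritic cell markers summed to 146 to 228 CPM in allogeneic, 14.8 to 34.3 CPM in syngeneic and 3.34 to 5.08 CPM in naive libraries, and in allogeneic against syngeneic libraries 1 of the 7 tested was higher, Itgax, which activated T cells can also make, and 6 were lower. NK-cell markers summed to 40.3 to 63.1 CPM, 12.3 to 22.8 CPM and 10.6 to 15.6 CPM. Klrb1c and Klrc2, at means of 30.7 and 20.6 CPM, made up most of the allogeneic sum. Of the 6 NK-cell markers tested, 3 were higher in allogeneic against syngeneic libraries (Ncr1, Klrb1c and Klrc2) and 2 were lower (Klra8 and Klra4). The part of these other cells in the receptor values was not tested. The ribosomal RNA locus genes Gm26917 and Gm42418 took 7.87 to 17.2% of allogeneic, 19.4 to 22.4% of syngeneic and 15.8 to 18.8% of naive counts.

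In allogeneic T cells the inducible costimulators Tnfrsf9, Tnfrsf4, Tnfrsf18 and Tnfrsf8 and the TNF receptor gene Tnfrsf1b were each at least 2-fold higher than in syngeneic T cells on the TMM scale. Without the ribosomal RNA locus the log2 fold change of Tnfrsf18 was 0.91, and with scaling on CD3 counts Tnfrsf18 was 0.52 and Tnfrsf8 0.87, all still called higher. The gene of the other TNF receptor, Tnfrsf1a, and the HVEM gene Tnfrsf14 were lower. Of the 9 members, 6 were called higher and 2 lower in allogeneic against syngeneic libraries, where 45.0% of all 19609 genes tested were called, 24.3% higher and 20.7% lower. The median log2 fold change of the members was 1.08, beside -0.025 over all genes. In 8 of the 9 members the 3 allogeneic and the 3 syngeneic libraries did not overlap in CPM, which was also so for 52.7% of all genes tested. Against naive libraries, 5 members were called higher and 3 lower in allogeneic T cells, where 57.7% of all genes were called, 31.8% higher and 25.9% lower. In 7 members the allogeneic and naive libraries did not overlap, which held for 65.1% of all genes tested. In syngeneic against naive libraries no member was called higher and 5 were called lower, where 41.9% of all genes were called, 22.4% higher and 19.5% lower. The comparisons with naive libraries share those 3 libraries.

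**Figure D1:**
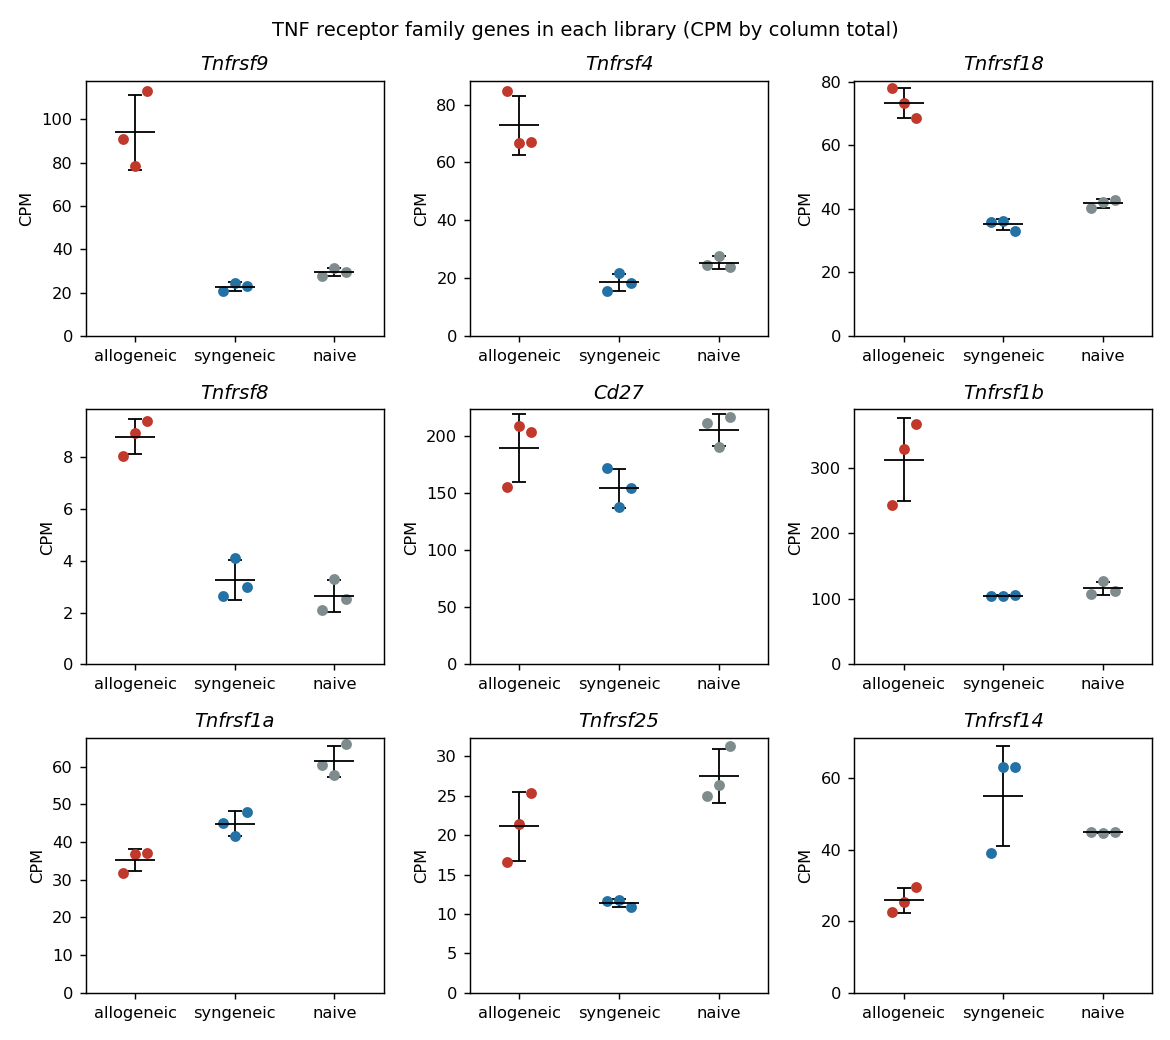
CPM of each of the 9 receptor genes in every library, with allogeneic, syngeneic and naive libraries from left to right. Points are libraries, the wide bar is the mean and the whiskers are 1 SD (n = 3). The allogeneic points of Tnfrsf9, Tnfrsf4, Tnfrsf18, Tnfrsf8 and Tnfrsf1b lie above all points of the other groups, and those of Tnfrsf14 and Tnfrsf1a below them.

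Tnfrsf9 (ENSMUSG00000028965, GRCm38 chromosome 4, 150914562 to 150946102, plus strand) encodes 4-1BB, a receptor that appears on T cells after antigen receptor stimulation and sustains their survival through TRAF adaptors. It stood at 90.8, 78.4 and 113 CPM in allogeneic libraries, 20.6, 24.6 and 23.2 CPM in syngeneic libraries and 27.7, 31.2 and 29.3 CPM in naive libraries. The 3 groups did not overlap, with allogeneic libraries highest and syngeneic libraries lowest. Tnfrsf9 rose 4.17-fold in allogeneic against syngeneic libraries (log2 fold change 2.06 ± 0.12 SE, edgeR adjusted p = 2e-07) and 3.32-fold against naive libraries (1.73 ± 0.12, edgeR adjusted p = 2.48e-07). It was the member with the largest change between the transplant groups.

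Tnfrsf4 (ENSMUSG00000029075, chromosome 4, 156013843 to 156016612, plus strand) encodes OX40, a costimulator of activated CD4 T cells that mouse regulatory T cells also carry at rest. Its levels were 84.7, 66.9 and 67.0 CPM in allogeneic, 15.6, 21.7 and 18.2 CPM in syngeneic and 24.4, 27.8 and 24.0 CPM in naive libraries. Every allogeneic library was above every other library, and the syngeneic libraries were below the naive ones. The log2 fold change was 2.01 ± 0.15 against syngeneic (edgeR adjusted p = 1.39e-06) and 1.59 ± 0.15 against naive libraries (edgeR adjusted p = 3.29e-06).

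Tnfrsf18 (ENSMUSG00000041954, chromosome 4, 156026164 to 156028895, plus strand) encodes GITR, which is abundant on regulatory T cells and increases on effector T cells after activation. It was measured at 77.9, 73.4 and 68.6 CPM in allogeneic, 36.0, 36.2 and 33.0 CPM in syngeneic and 40.2, 42.2 and 42.9 CPM in naive libraries. Allogeneic libraries were again apart from the rest, at a smaller distance than for 4-1BB and OX40, with a log2 fold change of 1.08 ± 0.11 against syngeneic (edgeR adjusted p = 1.24e-05) and 0.87 ± 0.11 against naive libraries (edgeR adjusted p = 3.1e-05). An annotated antisense gene, Gm16008, covers 27.2% of the exon bases of Tnfrsf18, and the strand setting of the counting is not known. Gm16008 itself had 0.317 ± 0.142 CPM in allogeneic, 0.216 ± 0.0325 CPM in syngeneic and 0.350 ± 0.0468 CPM in naive libraries (SD, n = 3 each).

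Tnfrsf8 (ENSMUSG00000028602, chromosome 4, 145267137 to 145315164, minus strand) encodes CD30, a receptor of activated lymphocytes. It was the least abundant member, with 8.03, 8.90 and 9.37 CPM in allogeneic, 2.64, 4.10 and 3.00 CPM in syngeneic and 2.10, 3.30 and 2.53 CPM in naive libraries. Syngeneic and naive libraries overlapped with each other and not with allogeneic libraries. The log2 fold change was 1.45 ± 0.19 against syngeneic (edgeR adjusted p = 0.000118) and 1.78 ± 0.20 against naive libraries (edgeR adjusted p = 1.35e-05).

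Cd27 (ENSMUSG00000030336, chromosome 6, 125232622 to 125237010, minus strand) encodes a costimulator that resting T cells already carry and whose ligand is CD70. Its level was 155, 208 and 203 CPM in allogeneic, 172, 138 and 154 CPM in syngeneic and 211, 190 and 216 CPM in naive libraries. Allogeneic libraries overlapped with both other groups, and neither difference was called (0.29 ± 0.12 against syngeneic, edgeR adjusted p = 0.0728, and -0.08 ± 0.12 against naive, edgeR adjusted p = 0.595). The difference from syngeneic libraries was called without allogeneic library 1 (0.37, edgeR adjusted p = 0.0432) or without syngeneic library 1 (0.43, edgeR adjusted p = 0.00887), and its sign turned when counts were scaled on CD3 genes (-0.25).

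The 2 receptors for TNF moved in opposite directions. Tnfrsf1b (ENSMUSG00000028599, chromosome 4, 145213463 to 145246870, minus strand) encodes TNFR2, which binds TRAF2, has no death domain and is carried mainly by leukocytes. It stood at 243, 328 and 367 CPM in allogeneic, 105, 105 and 106 CPM in syngeneic and 108, 127 and 112 CPM in naive libraries. The lowest allogeneic library was above the highest of the others, with a log2 fold change of 1.57 ± 0.11 against syngeneic (edgeR adjusted p = 6.91e-07) and 1.48 ± 0.11 against naive libraries (edgeR adjusted p = 3.92e-07). Tnfrsf1a (ENSMUSG00000030341, chromosome 6, 125349362 to 125362484, plus strand) encodes TNFR1, the widely expressed receptor with a death domain. It was at 31.8, 36.8 and 37.0 CPM in allogeneic, 45.1, 41.6 and 48.0 CPM in syngeneic and 60.5, 57.8 and 65.9 CPM in naive libraries. The 3 groups formed separate steps, with allogeneic libraries lowest and naive libraries highest. Tnfrsf1a fell by 0.34 ± 0.09 on the log2 scale against syngeneic (edgeR adjusted p = 0.0115) and by 0.75 ± 0.09 against naive libraries (edgeR adjusted p = 3.44e-05).

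Tnfrsf25 (ENSMUSG00000024793, chromosome 4, 152115934 to 152120119, plus strand) encodes DR3, a death domain receptor for the cytokine TL1A that costimulates T cells. Its levels were 16.6, 21.4 and 25.4 CPM in allogeneic, 11.6, 11.8 and 10.9 CPM in syngeneic and 24.9, 26.3 and 31.3 CPM in naive libraries. Syngeneic libraries were the lowest, and 1 allogeneic library reached into the naive range. In syngeneic libraries Tnfrsf25 was 2.34-fold lower than in naive libraries (-1.23 ± 0.14, edgeR adjusted p = 3.08e-05), the largest change of any member in that comparison. Allogeneic libraries were higher than syngeneic libraries by 0.89 ± 0.13 (edgeR adjusted p = 0.000298), or by 0.34 with scaling on CD3 counts (edgeR adjusted p = 0.0829). Against naive libraries the allogeneic value was -0.34 ± 0.13 (edgeR adjusted p = 0.0467). That call was lost when any of 7 libraries was left out, with edgeR adjusted p-values of 0.0502, 0.0549 and 0.211 without naive libraries 1, 2 and 3, 0.0506 and 0.0583 without syngeneic libraries 2 and 3, and 0.158 and 0.106 without allogeneic libraries 1 and 2.

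Tnfrsf14 (ENSMUSG00000042333, chromosome 4, 154921933 to 154928563, minus strand) encodes HVEM, a receptor of resting T cells that binds LIGHT and lymphotoxin alpha and also the immunoglobulin family molecules BTLA and CD160. It was measured at 22.7, 25.4 and 29.7 CPM in allogeneic, 39.1, 63.1 and 63.1 CPM in syngeneic and 44.9, 44.8 and 45.1 CPM in naive libraries. All allogeneic libraries were below all others, and syngeneic libraries fell on both sides of the naive ones. Tnfrsf14 fell 2.10-fold in allogeneic against syngeneic libraries (-1.07 ± 0.14, edgeR adjusted p = 8.6e-05) and 1.68-fold against naive libraries (-0.75 ± 0.14, edgeR adjusted p = 0.000632). Syngeneic library 1, the lowest of its group for Tnfrsf14, also had the lowest sums of erythroid and macrophage markers in that group. Its erythroid markers summed to 2179 CPM, against 5569 and 4772 CPM in syngeneic libraries 2 and 3, and its macrophage and monocyte markers to 53.0 CPM, against 212 and 195 CPM. The part of other cells in the Tnfrsf14 counts was not tested. Without syngeneic library 1 the syngeneic value was called higher than naive (0.48, edgeR adjusted p = 0.0012), against 0.32 ± 0.13 with all libraries (edgeR adjusted p = 0.0768).

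**Figure D2:**
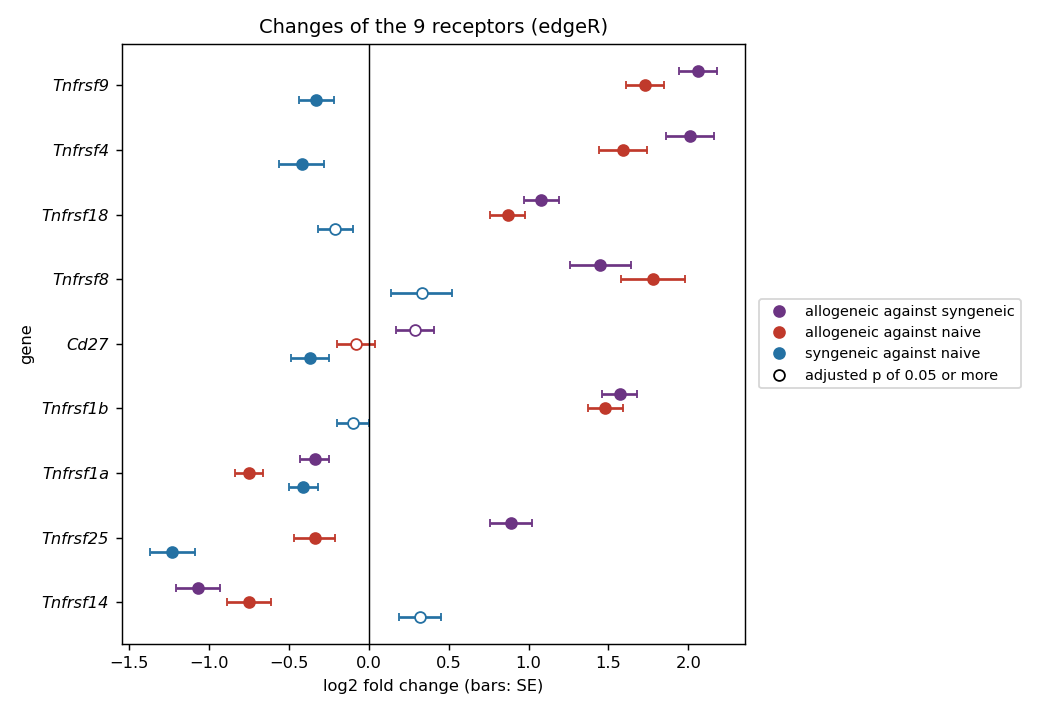
Log2 fold change of each receptor gene in the 3 comparisons, from edgeR, with SE as bars. Open points had an adjusted p of 0.05 or more. Tnfrsf9 and Tnfrsf4 lie at 2.06 and 2.01 for allogeneic against syngeneic libraries and below 0 for syngeneic against naive libraries.

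In syngeneic libraries 5 members were called lower than in naive libraries on the TMM scale. Beside Tnfrsf25, the called members in syngeneic against naive libraries were Tnfrsf4 (-0.42 ± 0.14, edgeR adjusted p = 0.034), Tnfrsf1a (-0.41 ± 0.09, edgeR adjusted p = 0.00392), Cd27 (-0.37 ± 0.12, edgeR adjusted p = 0.0302) and Tnfrsf9 (-0.33 ± 0.11, edgeR adjusted p = 0.0375). The values of Tnfrsf18 (-0.21 ± 0.11), Tnfrsf1b (-0.10 ± 0.10) and Tnfrsf8 (0.33 ± 0.19) were not called. In 7 of the 9 members all syngeneic libraries were below all naive libraries, where 56.5% of all genes tested did not overlap in either direction. The 4 CD3 chain genes Cd3d, Cd3e, Cd3g and Cd247 were lower as well, with a summed level of 1246, 1026 and 1035 CPM in syngeneic libraries and 1760, 1656 and 1867 CPM in naive libraries. It was 1567, 1570 and 1654 CPM in allogeneic libraries. Of the 11 T-cell identity genes, 8 were called lower in syngeneic against naive libraries, beside 19.5% of all genes tested. The 4 CD3 genes were at -0.66 to -0.61, while Lck (-0.15), Zap70 (-0.15) and Lat (-0.24) were not called. Scaling on CD3 counts thus rests on genes that fell more than those 3. Fewer T cells in a library and less RNA of a gene per T cell cannot be told apart in bulk samples.

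When libraries were scaled on those CD3 counts, the median of all genes moved to 0.66 in syngeneic against naive and to -0.59 in allogeneic against syngeneic libraries, and the receptors moved with it. On this scale Tnfrsf9 was 0.32 (edgeR adjusted p = 0.104), Tnfrsf4 0.23 (edgeR adjusted p = 0.306), Tnfrsf1a 0.24 (edgeR adjusted p = 0.0961) and Cd27 0.27 (edgeR adjusted p = 0.0694) in syngeneic against naive libraries, so that only Tnfrsf25 among the lower members was still called lower, at -0.58 (edgeR adjusted p = 0.008). Relative to the CD3 genes, 4 members were called higher in syngeneic libraries, Tnfrsf18 (0.43), Tnfrsf1b (0.54), Tnfrsf8 (0.99) and Tnfrsf14 (1.00). Tnfrsf18 and Tnfrsf1b were below the median of all genes on that scale, 0.66. The share of all genes called on the CD3 scale is not given here, so this count cannot be set against it. The higher calls of allogeneic libraries for Tnfrsf9 (1.48 against syngeneic and 1.81 against naive), Tnfrsf4 (1.42 and 1.66), Tnfrsf18 (0.52 and 0.95), Tnfrsf8 (0.87 and 1.86) and Tnfrsf1b (1.02 and 1.56) were present on the CD3 scale as well. So were the lower calls of Tnfrsf14 (-1.66 and -0.66) and Tnfrsf1a (-0.90 and -0.66). The syngeneic decreases of Tnfrsf9 and Tnfrsf4 were also lost when single libraries were left out. For Tnfrsf9 this was so without any one of the 6 libraries compared (edgeR adjusted p of 0.0579 to 0.0985), and for Tnfrsf4 without naive library 1 (0.0644), 2 (0.098) or 3 (0.0617) or syngeneic library 1 (0.0899) or 3 (0.104). The decrease of Cd27 was lost without naive library 1 (0.0912) or 3 (0.105) or syngeneic library 2 (0.11) or 3 (0.0995).

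**Figure D3:**
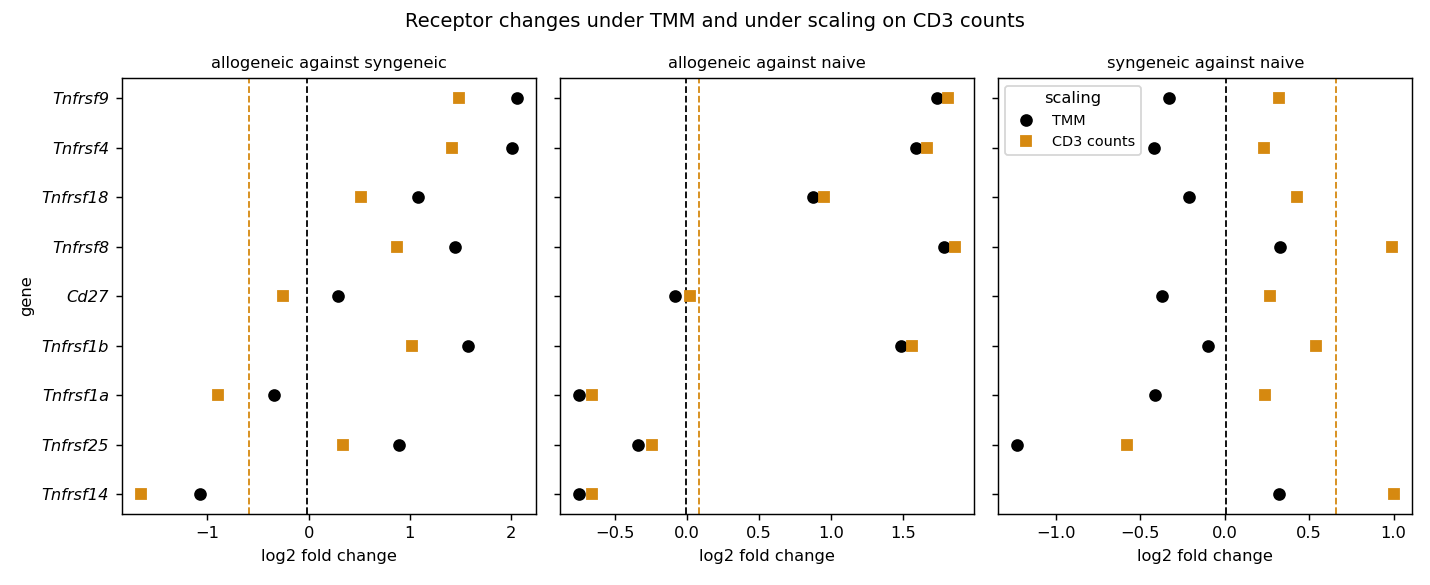
Log2 fold change of each receptor gene with TMM scaling (black circles) and with scaling on the counts of 4 CD3 genes (orange squares), 1 panel per comparison. Dashed lines mark the median of all genes under each scaling. In syngeneic against naive libraries the whole set shifts with the median, from -0.33 to 0.32 for Tnfrsf9.

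The make-up of the receptor RNA differed between the groups. Levels were divided by the length of the merged exons to compare genes. Cd27 was the most abundant member per kb in syngeneic (66.4 ± 7.25 CPM per kb) and naive libraries (88.2 ± 5.88 CPM per kb). In allogeneic libraries Tnfrsf1b (81.8 ± 16.6 CPM per kb) and Cd27 (81.1 ± 12.7 CPM per kb, SD, n = 3 each) led the order with overlapping libraries. Tnfrsf4 (53.4 ± 7.50 CPM per kb) and Tnfrsf18 (48.1 ± 3.06 CPM per kb) followed, also overlapping, and then Tnfrsf9 (34.5 ± 6.40 CPM per kb) and, with no overlap between neighbours, Tnfrsf14, Tnfrsf1a, Tnfrsf25 and Tnfrsf8. In the order of syngeneic libraries Cd27 was followed by Tnfrsf14 and Tnfrsf1b, which overlapped, then Tnfrsf18, Tnfrsf1a, Tnfrsf4, Tnfrsf9, Tnfrsf25 and Tnfrsf8. The naive order differed from it only in that Tnfrsf25 came before Tnfrsf9, with overlapping libraries. Tnfrsf8 was last in all groups, at 2.53 ± 0.196 CPM per kb in allogeneic, 0.938 ± 0.220 CPM per kb in syngeneic and 0.764 ± 0.175 CPM per kb in naive libraries.

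As shares of the summed level per kb of the 9 genes, Tnfrsf9 made up 10.1 ± 1.53% in allogeneic, 4.18 ± 0.292% in syngeneic and 4.44 ± 0.286% in naive libraries. Tnfrsf4 made up 15.8 ± 3.47%, 6.75 ± 1.03% and 7.67 ± 0.740% in the same order of groups, and Tnfrsf1b 23.7 ± 3.09%, 13.8 ± 0.335% and 12.5 ± 1.20%. The shares of the receptors of resting cells were smaller in allogeneic libraries. Cd27 held 23.6 ± 2.39% in allogeneic, 33.2 ± 4.38% in syngeneic and 36.3 ± 2.06% in naive libraries, and Tnfrsf14 held 5.25 ± 0.316%, 19.0 ± 4.38% and 12.9 ± 0.258%. The summed level was 314, 345 and 368 CPM per kb in allogeneic and 194, 202 and 205 CPM per kb in syngeneic libraries. In naive libraries it was 239, 240 and 250 CPM per kb, and the groups did not overlap. Between pairs of groups, 52.7 to 65.1% of all genes tested did not overlap either. These sums rest on column totals. The ribosomal RNA locus took 7.87 to 17.2%, 19.4 to 22.4% and 15.8 to 18.8% of them in allogeneic, syngeneic and naive libraries. Summed CD3 levels were also lowest in syngeneic libraries.

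**Figure D4:**
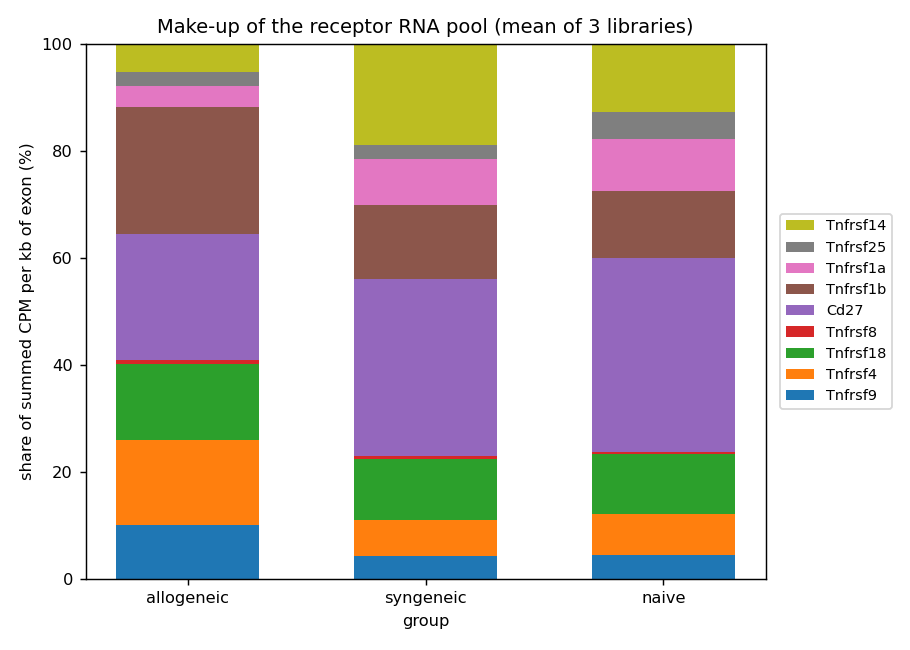
Share of each receptor gene in the summed CPM per kb of exon of the 9 genes, as the mean of 3 libraries per group. The Tnfrsf9, Tnfrsf4 and Tnfrsf1b segments are widest in the allogeneic bar, and the Cd27 and Tnfrsf14 segments are narrowest there.

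Regulatory T cells carry OX40, GITR and TNFR2 at rest, and their defining gene is Foxp3. Foxp3 averaged 27.7 ± 6.42 CPM in allogeneic, 26.9 ± 5.26 CPM in syngeneic and 61.1 ± 6.24 CPM in naive libraries (SD, n = 3 each). It was lower than naive in both transplant groups (-1.09 ± 0.14 in allogeneic, edgeR adjusted p = 6.04e-05, and -1.15 ± 0.14 in syngeneic, edgeR adjusted p = 7.98e-05) and did not pass the test between them (0.06 ± 0.14, edgeR adjusted p = 0.75). For each Foxp3 count there were 3.81, 1.92 and 2.56 Tnfrsf4 counts in allogeneic libraries, 0.711, 0.670 and 0.692 in syngeneic libraries and 0.420, 0.407 and 0.421 in naive libraries. Such ratios also rise where Foxp3 falls. For Cd27, not called in allogeneic against naive libraries, they were 6.97, 5.99 and 7.76 in allogeneic and 3.63, 2.78 and 3.78 in naive libraries. Of 9 regulatory T-cell markers, 3 were higher and 3 lower in allogeneic against syngeneic libraries, and 3 higher and 6 lower against naive libraries. Of all genes tested, 45.0% and 57.7% were called in these comparisons. The higher markers were Il2ra (2.19 against syngeneic), Ctla4 (2.23) and Nrp1 (2.92), which activated effector cells can make as well. The lower ones against syngeneic libraries were Ikzf4 (-0.51), Itgae (-1.34) and Gpr83 (-2.46). The part of regulatory T cells in the receptor values was not tested. The balance of T-cell lineages differed too, with a Cd8a to Cd4 count ratio of 0.715, 1.04 and 1.05 in allogeneic, 2.95, 2.61 and 3.37 in syngeneic and 0.944, 0.932 and 0.968 in naive libraries. The part of this balance in the receptor differences was not tested in any comparison. Between allogeneic and naive libraries, Cd4 (-0.03, edgeR adjusted p = 0.863) and Cd8a (-0.07, edgeR adjusted p = 0.637) did not pass the test.

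The ligand genes were measured in the same bulk libraries, in which other cells were also represented. Many of these ligands are made mainly by antigen-presenting cells, and the part of other cells in the ligand values was not tested. Of 17 ligand genes, 16 were tested, and 7 were higher and 3 lower in allogeneic against syngeneic libraries. Their median was 0.57, beside -0.025 over all genes, of which 24.3% were called higher and 20.7% lower. Tnfsf9, which encodes the ligand of 4-1BB, rose together with its receptor. It was at 9.93, 10.6 and 14.3 CPM in allogeneic, 2.11, 1.56 and 1.66 CPM in syngeneic and 1.06, 1.16 and 1.59 CPM in naive libraries (2.71 ± 0.23 against syngeneic, edgeR adjusted p = 3.72e-06). Tnfsf14, which encodes the HVEM ligand LIGHT, rose where its receptor fell. Its levels of 56.8, 57.2 and 62.2 CPM in allogeneic libraries were above the 19.6, 19.4 and 22.8 CPM of syngeneic and the 11.4, 15.1 and 13.6 CPM of naive libraries (1.53 ± 0.11 against syngeneic, edgeR adjusted p = 1.07e-06). Cd70, which encodes the CD27 ligand, was at 1.42, 0.770 and 1.37 CPM in allogeneic and 0.207, 0.0649 and 0.323 CPM in syngeneic libraries, with 0, 0.0353 and 0 CPM in naive libraries. Cd70 was thus higher by 2.59 ± 0.60 in allogeneic against syngeneic libraries (edgeR adjusted p = 0.00489).

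The ligand genes Tnfsf8, Tnfsf4 and Tnfsf15 were not called between the transplant groups. Tnfsf8, which encodes the CD30 ligand, was at 49.0, 59.3 and 80.8 CPM in allogeneic, 65.8, 70.9 and 63.0 CPM in syngeneic and 53.5, 61.0 and 55.2 CPM in naive libraries, and was not called in any comparison. Tnfsf4, which encodes the OX40 ligand, reached at most 1.11 CPM in any library and did not pass the test between the transplant groups (0.36 ± 0.41, edgeR adjusted p = 0.496). Tnfsf4 was higher than naive in both, by 2.14 ± 0.45 in allogeneic (edgeR adjusted p = 0.00161) and by 1.78 ± 0.45 in syngeneic libraries (edgeR adjusted p = 0.00754). Tnfsf15, which encodes the DR3 ligand TL1A, reached at most 0.221 CPM and was not called in any comparison. Tnfsf18, which encodes the GITR ligand, had 1 count in each of 2 syngeneic libraries and none in the others, which allows up to 0.00753 CPM over the allogeneic libraries, for counting error only.

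Genes of the ligands for the TNF receptors were lower in allogeneic than in syngeneic libraries. Tnf was at 11.9, 12.9 and 17.4 CPM in allogeneic libraries, 26.6, 21.6 and 24.7 CPM in syngeneic libraries and 20.4, 20.1 and 21.3 CPM in naive libraries (-0.79 ± 0.14 against syngeneic, edgeR adjusted p = 0.000819). Lta, which encodes lymphotoxin alpha, was at 2.08, 2.54 and 3.62 CPM in allogeneic, 9.72, 9.07 and 11.3 CPM in syngeneic and 12.6, 11.5 and 13.3 CPM in naive libraries. The Lta change of -1.87 ± 0.18 against syngeneic libraries (edgeR adjusted p = 9.22e-06) was the largest decrease among the ligands. Ltb, which encodes the membrane partner of lymphotoxin alpha, fell by 0.94 ± 0.14 (edgeR adjusted p = 0.000274). Fasl, which encodes the ligand of the death receptor Fas, rose by 2.09 ± 0.14 (edgeR adjusted p = 6.79e-07), while Fas itself was lower (-0.53 ± 0.11, edgeR adjusted p = 0.00306). Of the immunoglobulin family partners of HVEM, Cd160 was higher in allogeneic libraries (0.46 ± 0.11 against syngeneic, edgeR adjusted p = 0.00571) and Btla did not pass (0.06 ± 0.09, edgeR adjusted p = 0.61).

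**Figure D5:**
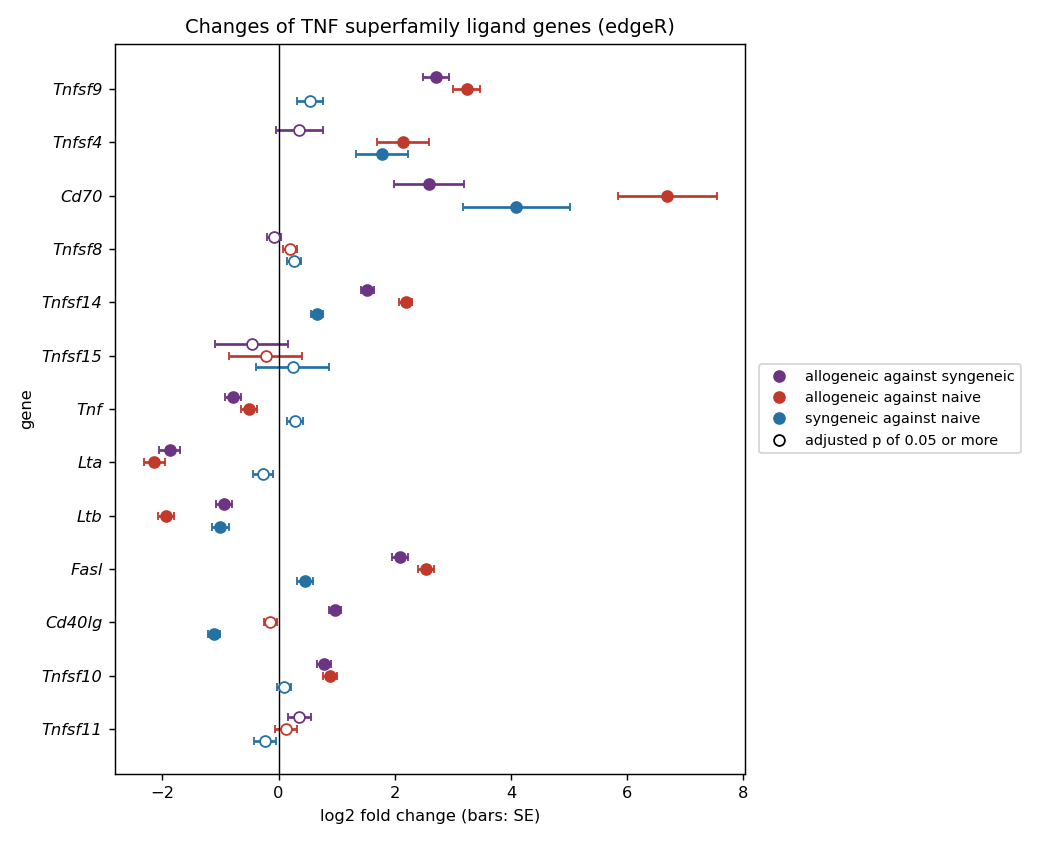
Log2 fold change of 13 ligand genes of the TNF superfamily in the 3 comparisons, from edgeR, with SE as bars and open points at an adjusted p of 0.05 or more. Tnfsf9, Tnfsf14 and Fasl lie well above 0 for allogeneic against syngeneic libraries, and Lta, Ltb and Tnf below 0. The value of Cd70 against naive libraries rests on 4 counts in the naive group.

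Other receptors of the superfamily did not share a direction. Of 19 listed genes 15 were tested, and 4 were higher and 7 lower in allogeneic against syngeneic libraries (median -0.33). Over all genes tested, 24.3% were called higher and 20.7% lower. The largest increases were those of Tnfrsf13c, which encodes the BAFF receptor (2.05 ± 0.22), Tnfrsf19 (1.24 ± 0.40) and Tnfrsf11a, which encodes RANK (1.08 ± 0.39). The largest decreases were those of the B-cell and myeloid receptor gene Cd40 (-1.26 ± 0.30), Tnfrsf21, which encodes DR6 (-1.15 ± 0.28), and Tnfrsf10b, which encodes the TRAIL receptor (-1.11 ± 0.12). B-cell markers summed to 37.1 to 47.8 CPM in allogeneic, 82.2 to 111 CPM in syngeneic and 16.2 to 20.5 CPM in naive libraries, and macrophage and monocyte markers to 50.1 to 87.8 CPM, 53.0 to 212 CPM and 3.78 to 4.82 CPM. Of these lists, 6 of 10 tested B-cell and 10 of 13 macrophage markers were lower in allogeneic against syngeneic libraries. Their part in the values of Cd40 and Tnfrsf21 was not tested.

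Signalling genes downstream of the receptors moved in both directions. The values that follow are on the TMM scale. With scaling on CD3 counts the median of all genes stood at -0.59 in this comparison, so increases smaller than that are relative to the TMM scale. Of 14 TRAF adaptors and ubiquitin ligases, 3 were higher and 4 lower in allogeneic against syngeneic libraries (median 0.04). That is near the shares over all genes tested, 24.3% higher and 20.7% lower. Only 4 of the TRAF genes were called without allogeneic library 1. Traf2, which encodes the adaptor that 4-1BB, OX40 and TNFR2 bind, rose by 0.46 ± 0.08 (edgeR adjusted p = 0.000657), followed by Traf7 (0.39 ± 0.09) and Traf3ip2 (0.33 ± 0.09). Tnfaip3, which encodes the NF-kappaB inhibitor A20, was at 159, 225 and 155 CPM in allogeneic libraries, 416, 501 and 329 CPM in syngeneic libraries and 134, 117 and 101 CPM in naive libraries. It was thus highest in syngeneic libraries, and the allogeneic value was lower by 1.20 ± 0.18 on the log2 scale (edgeR adjusted p = 0.00024). Traf4 (-0.37 ± 0.11) and Birc2, which encodes a ubiquitin ligase of the receptor complex (-0.26 ± 0.09), were lower too. Traf1 did not pass (0.05 ± 0.08, edgeR adjusted p = 0.68).

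Among 12 genes of receptor-proximal and death domain signalling, 6 were higher and 1 lower in allogeneic against syngeneic libraries (median 0.23). Over all genes tested, 24.3% were called higher and 20.7% lower. Tradd, which encodes the death domain adaptor of TNFR1 and DR3, rose by 0.82 ± 0.11 (edgeR adjusted p = 0.000109). Tab2 (0.56 ± 0.08) and the necroptosis kinase gene Ripk3 (0.51 ± 0.11) rose as well, and Tab3 fell by 0.45 ± 0.15. Of 13 genes of the NF-kappaB pathway, 3 were higher and 3 lower (median 0.07), which is near the shares over all genes. Nfkb1, which encodes the p105 precursor, rose by 0.67 ± 0.08 (edgeR adjusted p = 3.78e-05), with Nfkbib (0.43 ± 0.09) and Chuk (0.24 ± 0.09). Map3k14, which encodes the kinase NIK of the alternative NF-kappaB pathway, fell by 0.53 ± 0.10 (edgeR adjusted p = 0.00131), with Ikbkb (-0.52 ± 0.09) and Relb (-0.34 ± 0.09). Map3k14 was at 38.1, 50.7 and 49.9 CPM in allogeneic, 71.8, 63.9 and 64.8 CPM in syngeneic and 126, 121 and 127 CPM in naive libraries, without overlap between groups.

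Most members lie on 1 chromosome. In GRCm38, 7 of the 9 are within 10.8 Mb of chromosome 4 (145213463 to 156028895) and 2 are on chromosome 6. Tnfrsf18 and Tnfrsf4 are separated by 9.55 kb on the same strand, and both rose in allogeneic T cells. Tnfrsf1b and Tnfrsf8 are 20.3 kb apart and also both rose. On chromosome 6, Cd27 and Tnfrsf1a are 112 kb apart on opposite strands, and of this pair Tnfrsf1a was called lower and Cd27 was not called. Camta1 overlaps Tnfrsf9 and Vamp1 overlaps Cd27 on the opposite strand, sharing 0 exon bases with them, and a microRNA gene, Mir8113, lies within 5.54% of the exon bases of Cd27.

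RefSeq promoter windows (GRCm38.p6) were available for all 9 members, in 11 windows, since Tnfrsf9 and Tnfrsf25 each had 2 annotated starts. The 250 bases before each start were searched on both strands for the AP-1 motif TGANTCA and for the kappaB consensus, whose matches may overlap each other. AP-1 is bound by the Fos and Jun factors and the kappaB consensus by NF-kappaB, which both act after T-cell activation. Of all 32851 windows of this length, 6.75% held the AP-1 motif, 7.25% the kappaB consensus and 0.356% both. Among the 11 member windows 2 held both, one of the 2 Tnfrsf9 windows and the Tnfrsf8 window, and the second Tnfrsf25 window held the kappaB consensus alone. A match describes the letters only, and no binding was measured. The windows with both motifs are shown with that of Tnfrsf4, which rose as much as Tnfrsf9 and held no match in these 250 bases. They are written 5′ to 3′ on the strand of the gene, with matched bases in capitals, and span chr4:150927749-150927998 (plus strand) for Tnfrsf9, chr4:145315165-145315414 (minus strand) for Tnfrsf8 and chr4:156013445-156013694 (plus strand) for Tnfrsf4.
Tnfrsf9: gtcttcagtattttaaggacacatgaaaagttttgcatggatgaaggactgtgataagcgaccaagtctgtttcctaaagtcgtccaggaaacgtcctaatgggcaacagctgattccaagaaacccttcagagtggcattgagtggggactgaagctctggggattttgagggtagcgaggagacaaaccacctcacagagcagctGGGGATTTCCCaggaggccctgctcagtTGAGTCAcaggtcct
Tnfrsf8: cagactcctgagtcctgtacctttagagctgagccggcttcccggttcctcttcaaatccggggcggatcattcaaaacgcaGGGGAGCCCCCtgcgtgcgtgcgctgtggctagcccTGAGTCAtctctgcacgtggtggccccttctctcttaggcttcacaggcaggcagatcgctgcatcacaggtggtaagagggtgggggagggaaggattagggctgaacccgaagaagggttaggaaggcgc
Tnfrsf4: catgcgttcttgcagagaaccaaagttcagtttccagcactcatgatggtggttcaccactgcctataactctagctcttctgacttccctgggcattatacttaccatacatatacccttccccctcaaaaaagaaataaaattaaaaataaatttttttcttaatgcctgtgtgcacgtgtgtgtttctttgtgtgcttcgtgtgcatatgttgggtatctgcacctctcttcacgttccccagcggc
In the Tnfrsf9 window the kappaB matches begin 43 and 42 bases before the start and the AP-1 match 15 bases before it. In the Tnfrsf8 window they begin 168 and 167 bases and 132 bases before the start.

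The genes whose pattern was most like that of a member were taken from all genes with a mean of at least 5 CPM. They were ranked by Pearson correlation over the 9 libraries of log2 CPM, here with TMM scaling. Such correlations mainly reflect the means of the 3 groups and are given as a description. For Tnfrsf9 these were Icos, which encodes another inducible costimulator (r = 0.9931), Pdcd1, which encodes PD-1 (r = 0.9916), and Abhd17c (r = 0.9906). For Tnfrsf4 they were Rbpj (r = 0.9972), which encodes the transcription factor of the Notch pathway, Maf (r = 0.9920) and Tmbim4 (r = 0.9881). Tnfrsf18 was most like Cab39 (r = 0.9968), Lypla1 (r = 0.9921) and 1110008P14Rik (r = 0.9917). Among the genes most like Tnfrsf1b were Ric1 (r = 0.9950) and Ikzf3 (r = 0.9929), and Tnfrsf8 was most like Casp4 (r = 0.9919), Itgb1 (r = 0.9914) and Mindy3 (r = 0.9904). Tnfrsf1a was nearest to Fitm2 (r = 0.9923), Cep68 (r = 0.9920) and Entpd6 (r = 0.9908), and Tnfrsf14 to Fam234b (r = 0.9920), Dnajb2 (r = 0.9865) and Ppm1l (r = 0.9840). Tnfrsf25 was nearest to Pde4dip (r = 0.9833), Gpbp1l1 (r = 0.9789) and Mtg2 (r = 0.9761), and Cd27 to Zfp7 (r = 0.9810), Apba3 (r = 0.9787) and Rbm15b (r = 0.9770).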

How the data were processed

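The authors deposited raw read counts per gene for 9 libraries, under Ensembl identifiers. Alignment used GRCm38, and the tools listed per the submitters' processing notes are HTSeq 0.6.1, Bowtie2 2.2.1, TopHat2 2.0.13 and FastQC 0.11.3. No source used here gives the gene annotation, the strand option of the counting or how reads aligned to several places were treated. Per the labels' protocols, libraries were stranded and made from total RNA depleted of ribosomal RNA, so unspliced RNA also contributes. Titles gave the groups. A strain tag that is the same in all 9 samples, the strain of the syngeneic recipients, was not used.

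Symbols, coordinates and exon lengths came from GENCODE M21 (GRCm38), with 215 identifiers unmatched and kept. Genes passing filterByExpr by group (19609 of 29229) were scaled by TMM and tested with glmQLFit and glmQLFTest of edgeR 4.0.16 in 1 model of the 3 groups. The SE is the size of the log2 fold change divided by the square root of F. Column-total CPM gave levels. DESeq2 1.42.0, limma 3.58.1 (voom), other scalings and filters, the replicate number as a block and leaving out each library were tried. The test was checked on simulated counts. No replicate pair agreed within sampling noise (chi-square per degree of freedom 22.5 to 362, over genes whose counts summed to 20 or more). The p-values measure the spread between pools of recipients and between naive libraries, estimated over all 9 libraries together in every comparison. Named from the pathway lists were the 3 called genes with the largest changes in each direction in allogeneic against syngeneic libraries, the members' ligands and HVEM partners, and, chosen after their values were seen, Fas, Traf1, Gm16008, Camta1, Vamp1 and the lineage and regulatory genes. The members and lists were chosen with earlier results of these data known. One gene of the likeness ranking is not reported here.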

Additional observations from a re-analysis of the deposited data

Results flagged for a closer look

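The changes of 2 members against naive libraries had opposite signs in the 2 transplant groups, each past the threshold. Tnfrsf9 was higher in allogeneic libraries by 1.73 and lower in syngeneic libraries by a log2 fold change of -0.33, and the difference between these changes was 2.06 (edgeR adjusted p = 2e-07). For Tnfrsf4 the values were 1.59 in allogeneic and -0.42 in syngeneic libraries, with a difference of 2.01 (edgeR adjusted p = 1.39e-06). The difference is the direct comparison of the transplant groups and had this sign in 3 of 3 allogeneic against all syngeneic libraries. With scaling on CD3 counts the syngeneic values were 0.32 and 0.23 and the differences 1.48 and 1.42, so the signs were no longer opposite. Both syngeneic calls were also lost with limma-voom, without the ribosomal RNA locus, and when single libraries were left out.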

How the results depend on the processing

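Between the transplant groups, the calls of Tnfrsf9, Tnfrsf4, Tnfrsf18, Tnfrsf8, Tnfrsf1b, Tnfrsf1a and Tnfrsf14 held in direction and threshold under every alternative run. Scaling on CD3 counts moved most, since the median of all genes went with it (-0.59 in allogeneic against syngeneic, 0.66 in syngeneic against naive). In allogeneic against syngeneic libraries Tnfrsf25 was 0.34 and Cd27 -0.25. Against naive libraries the allogeneic values were -0.24 for Tnfrsf25 and 0.02 for Cd27, with 4 TRAF genes called in place of 9. Syngeneic against naive values were 0.32 (Tnfrsf9), 0.23 (Tnfrsf4), 0.43 (Tnfrsf18), 0.24 (Tnfrsf1a), 0.54 (Tnfrsf1b), 0.99 (Tnfrsf8), 1.00 (Tnfrsf14) and 0.27 (Cd27), with 13 ligand, 11 TRAF and 10 death domain genes called in place of 7, 6 and 6. The shares of all genes called under CD3 scaling are not given here, so these counts of called genes cannot be set against them. The Tnfrsf25 value in allogeneic against naive libraries lost its call with RLE scaling (-0.33) and without a filter (-0.35). In syngeneic against naive libraries, 3 members were called without the ribosomal RNA locus, where Tnfrsf9 (-0.31) and Tnfrsf4 (-0.40) lost their calls, and 3 with limma-voom, where the same genes lost theirs (-0.33 and -0.43). Tnfrsf18 was called there with library sizes alone (-0.25) and in a fit of those groups only (-0.24). A filter of 1 CPM in 3 libraries left 7 ligands called in allogeneic against naive libraries, in place of 12, as fewer were tested. Without the ribosomal RNA locus the median of all genes was -0.20 in allogeneic against syngeneic and -0.17 in allogeneic against naive libraries, and member CPM levels were higher.

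Leaving out each library gave, in syngeneic against naive libraries, 2 to 5 members called (2 without naive library 1 or 3 or syngeneic library 3, and 3 without naive library 2 or syngeneic library 2). The values there were -0.37 to -0.30 for Tnfrsf9, -0.54 to -0.36 for Tnfrsf4, -0.50 to -0.28 for Cd27 and 0.22 to 0.48 for Tnfrsf14, and 5 to 8 NF-kappaB genes were called (5 without naive library 1). Allogeneic against naive, Tnfrsf25 was -0.52 to -0.21. Allogeneic against syngeneic, Cd27 was 0.18 to 0.43, and 4 to 7 TRAF genes were called (4 without allogeneic library 1). The causes of these changes were not tested. No clear pairing by replicate number was seen. Same-numbered deviations correlated at -0.12 to 0.26 and differently numbered ones at -0.25 to 0.19. With 3 libraries per group this check cannot exclude a pairing. With the replicate block, Tnfrsf25 in allogeneic against naive (-0.34) and Tnfrsf9 in syngeneic against naive libraries (-0.33) missed the threshold, and 8, 7 and 4 members were called in the 3 comparisons in place of 8, 8 and 5. Low counts limit Cd70, Tnfsf4, Tnfsf15 and Tnfsf18.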
